A study of Mus musculus with 2 samples.

Results

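Schwann cells are the glia of peripheral nerves, and 8 genes that mark them or build their myelin were followed in the fetal ear of mice with and without the muscle-determining genes Myf5 and Myod1. The genes were chosen by name, as Sox10, Erbb3, Fabp7 and S100b on the glial side and Egr2, Pmp22, Mbp and Prx on the myelin side. A gene was measured where the platform annotation paired a probe set with it and with no other gene. That gave 7 probe sets for 7 of the 8 genes, out of 19938 named genes on the array, and Prx was not analysed here. The study hybridised 1 Affymetrix array of ear RNA of the Myf5-/-:MyoD-/- genotype on BALB/c, and 1 array of ear RNA from wild-type BALB/c, both at E18.5, shortly before birth. Skeletal muscle precursors depend on the transcription factors that these genes encode, and the series asks what muscle contributes to development of the ear. The labels do not give the part of the ear that was dissected, whether RNA was pooled, or how the null alleles were made. With 1 array per genotype no difference below has a replicate check and no test across animals is possible.

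Schwann cells arise from the neural crest and pass through a precursor stage and an immature stage before some of them wrap axons in myelin. Sox10, a transcription factor, is needed at every stage of this lineage, and Erbb3 is the receptor through which axonal neuregulin keeps the cells alive and dividing. Fabp7, a fatty acid binding protein, is high in precursors and immature Schwann cells and also in the radial glia of the brain, while S100b, a calcium-binding protein, comes up as Schwann cells mature and is also made by chondrocytes. Egr2, also called Krox20, is the transcription factor that switches on the myelin genes. Pmp22 and Mbp encode proteins of compact myelin, and Prx encodes periaxin, a scaffold of the myelinating cell. In the mouse, peripheral myelination starts around birth, so a fetus of this age holds mostly immature Schwann cells with the first myelinating ones among them.

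The 300 bases around the annotated starts are shown for Fabp7, the glial member furthest above 0, and for Pmp22, a myelin member with several annotated starts, because each was read by a single probe set that does not tell a gene's alternative starts apart. RefSeq lists 1 such window for Fabp7 and 4 for Pmp22 in build GRCm38.p6, and the most upstream and the most downstream of the Pmp22 windows are given. Pmp22 is known to have separate promoters for Schwann cells and for other tissues. All run 5′ to 3′ on the + strand, from 250 bases before the start to 50 after it, with every CG dinucleotide in capitals.
Fabp7, chr10:57784673-57784972: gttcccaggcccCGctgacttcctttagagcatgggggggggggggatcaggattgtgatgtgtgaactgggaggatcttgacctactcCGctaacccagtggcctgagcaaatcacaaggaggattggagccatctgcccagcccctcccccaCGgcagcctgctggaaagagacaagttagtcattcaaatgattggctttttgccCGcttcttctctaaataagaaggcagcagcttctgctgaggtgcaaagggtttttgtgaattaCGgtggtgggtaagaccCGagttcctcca
Pmp22 upstream start, chr11:63128732-63129031: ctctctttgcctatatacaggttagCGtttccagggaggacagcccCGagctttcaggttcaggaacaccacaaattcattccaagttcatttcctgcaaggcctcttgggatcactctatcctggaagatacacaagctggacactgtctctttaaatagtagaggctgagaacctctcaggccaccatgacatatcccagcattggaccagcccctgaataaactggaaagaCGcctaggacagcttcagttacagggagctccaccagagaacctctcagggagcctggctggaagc
Pmp22 downstream start, chr11:63132553-63132852: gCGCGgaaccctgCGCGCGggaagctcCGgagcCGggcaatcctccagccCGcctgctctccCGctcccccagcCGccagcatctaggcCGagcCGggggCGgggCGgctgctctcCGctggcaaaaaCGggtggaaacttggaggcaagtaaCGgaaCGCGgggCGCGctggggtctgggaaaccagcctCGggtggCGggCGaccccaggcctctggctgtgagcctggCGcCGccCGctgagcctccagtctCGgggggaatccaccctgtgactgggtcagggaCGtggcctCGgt
The Fabp7 window held 6 CG dinucleotides, the upstream Pmp22 window 3 and the downstream one 30, against a median of 7 over 32851 promoter windows of the same length. RefSeq windows were found for 5 of the 8 genes, 12 windows in all, several of which overlap, with Prx among the 5. The letters ACAAAG, a core that SOX factors bind, were in 0 of the 12 on either strand, against 18.7% of all windows. The letters GCGNGGGCG, which EGR factors bind, were also in 0 of the 12, against 5.55% of all windows.

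The deposited log2 signals of 35557 probe sets had a median of 5.70 in the double knockout and 5.65 in the wild type. That median was taken as each array's floor, and a lower value was raised to it before a difference was formed. Of the targeted genes, Myod1 read 6.38 in the double knockout and 6.95 in the wild type. Myf5 read 5.25 in the double knockout, below the floor, and 5.94 in the wild type. The position of these probe sets relative to the deleted parts was not known. All 8 skeletal muscle markers were lower by 2-fold or more in the double knockout, against 1.71% of all genes. Their summed linear signals were 431 in the double knockout and 25424 in the wild type. The sarcomeric actins Actc1 and Acta1 and the myosin light chain Myl1 differed by -6.54, -6.46 and -5.60. Housekeeping genes had a median of -0.02, with Ppia, Ywhaz and B2m at 0.06, 0.13 and 0.02. They were not all level. At 1.2-fold or more, 1 of 8 was lower (Hprt, -0.35) and 0 were higher, against 12.9% and 11.2% of all genes. Pgk1 differed by -0.20. Inner ear tissue was present on both arrays: Oc90, the main otoconial protein, read 11.26 in the double knockout and 11.28 in the wild type. In whole-tissue RNA, fewer glial cells and less RNA per cell cannot be told apart.

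Glial members went in both directions. Fabp7 (probe set 10363224) read 12.02 in the double knockout and 11.51 in the wild type, a difference of 0.51 on the log2 scale, or 1.42-fold higher. In linear signal these are 4160 and 2926 units. S100b (probe set 10364149) read 6.40 in the double knockout and 6.13 in the wild type, 0.27 higher on the log2 scale or 1.21-fold, with the signal 0.70 and 0.49 above the floor. Sox10 (probe set 10430458) read 8.10 in the double knockout and 8.15 in the wild type, a difference of -0.05. Erbb3 (probe set 10373467) read 8.18 in the double knockout and 8.35 in the wild type, a difference of -0.18. The pair that marks the lineage at all its stages, Sox10 and Erbb3, lay between -0.18 and -0.05, below both Fabp7 and S100b. Brain glia and cartilage also make Fabp7 and S100b, and melanocytes share Sox10. What cells other than Schwann cells gave to any of these readings was not tested.

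Of the myelin members, Pmp22 (probe set 10376950) read 11.13 in the double knockout and 11.38 in the wild type, a difference of -0.24, with linear signals of 2246 and 2659 units. Egr2 (probe set 10363735) read 5.73 in the double knockout and 6.08 in the wild type, a difference of -0.35 or 1.27-fold lower. Its signal in the double knockout lay only 0.03 above the floor, so its true fold may be larger or smaller than the value shows. Mbp (probe set 10457022) read 7.02 in the double knockout and 7.00 in the wild type, a difference of 0.02. The activator of the myelin programme and the membrane protein Pmp22 thus read lower in the double knockout, while Mbp was level. Signals of different probe sets depend on their probes, so no gene's level is set against another's.

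**Figure D1:**
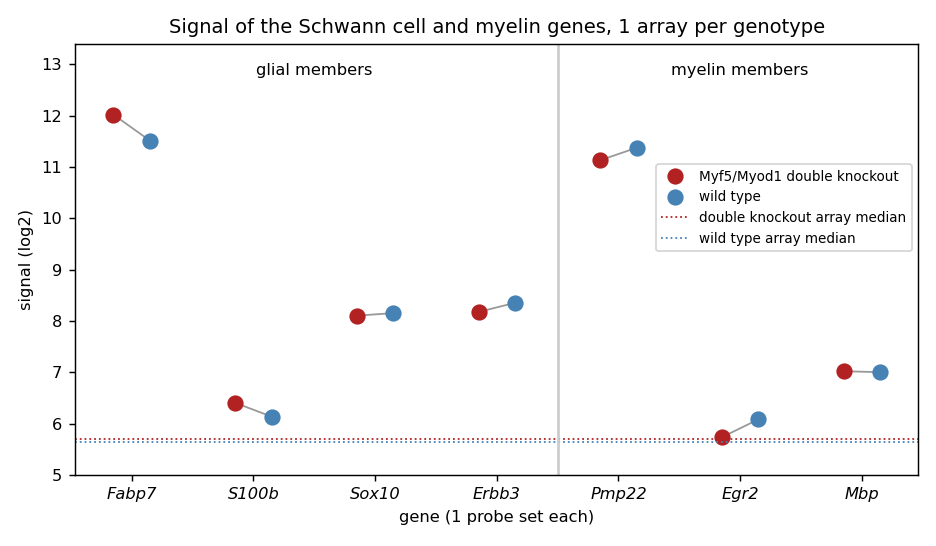
Log2 signal (y axis) of the 7 measured genes (x axis), with the double knockout at left and the wild type at right of each pair, 1 array per genotype, and dotted lines at the array medians. Fabp7 and S100b are higher in the double knockout, Egr2 and Pmp22 are lower, and Mbp and Sox10 lie within 0.05 of level; Egr2 in the double knockout sits almost on the median.

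Set side by side, the 4 glial members had a median difference of 0.11 and the 3 measured myelin members one of -0.24, a gap of 0.35 on the log2 scale. The gap depends on few genes. Without Fabp7 the glial median was -0.05 and the gap 0.19, and the same values were obtained without S100b; without Egr2 the myelin median was -0.11 and the gap 0.22. These 3 omissions were chosen after the values were seen. The myelin median of -0.24 is the value of Pmp22 itself, and the gap was not computed without Pmp22. Members of both sides overlapped, since Erbb3 at -0.18 lay among the myelin genes and Mbp at 0.02 lay above Sox10.

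Against all genes these are modest differences. At 1.2-fold or more, 1 of 7 members was lower in the double knockout (Egr2), against 12.9% of the 12458 genes that cleared the floor in either genotype. At the same fold 2 of 7 members were higher (Fabp7 and S100b), against 11.2% of all genes, and S100b passed the threshold by a narrow margin. The other 4 were within 1.2-fold. In either direction 0 of 7 passed 1.5-fold, which 3.62% of all genes did as lower and 2.25% as higher, or 2-fold, which 1.71% did as lower and 0.482% as higher. A difference below 0 was seen in 4 of 7 members and in 50.8% of all genes. Fabp7 stood furthest out, with 3.24% of all genes at or above its difference. Egr2 had 8.43% of genes at or below its difference, Pmp22 14.3% and Erbb3 20.5%. For scale, the standard deviation of the difference was 0.344 across the 11626 genes that cleared the floor in both genotypes. Among 619 genes with several probe sets it was 0.168 within a gene, a measure of probes and not of animals. Each member has 1 probe set, so no second reading of it is at hand.

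**Figure D2:**
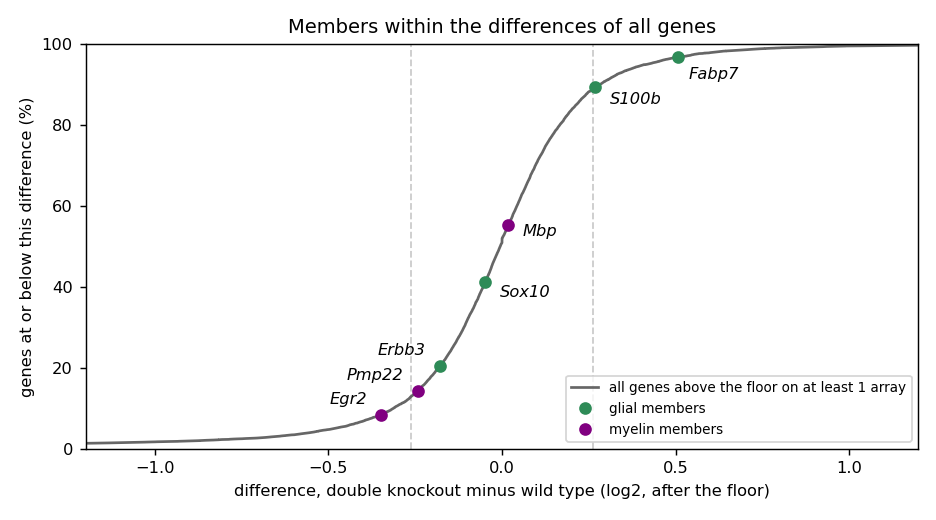
Share of all 12458 genes (y axis, percent) at or below each difference of double knockout minus wild type (x axis, log2 after the floor), with the 7 members marked on the curve and dashed lines at 1.2-fold. Fabp7 and S100b lie beyond the right line, Egr2 beyond the left one, and the other 4 members between them.

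Other proteins and lipid enzymes of myelin had values on both sides of 0. Of 18 genes with a probe set, 12 were above the floor, with a median of -0.05, against -0.01 for all genes. At 1.2-fold or more, 3 were lower in the double knockout and 1 was higher, against 12.9% and 11.2% of all genes. Gjc3, a connexin of myelinating glia, read 7.94 in the double knockout and 8.37 in the wild type. Cnp, the nucleotide phosphodiesterase of myelin, read 8.30 in the double knockout and 8.64 in the wild type, and Mal, a membrane proteolipid, differed by -0.30. Mag, the adhesion protein of the inner myelin layer, read 5.82 in the double knockout and 5.99 in the wild type, close to the floor. Mpzl1, a widely expressed cell surface protein, differed by -0.12. The higher gene was Nfasc at 0.31, whose neurofascin isoforms come from glia and from neurons. The 6 that stayed below the floor in both genotypes were Gjb1, Pllp, Ncmap, Fa2h, Gldn and Pmp2.

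Regulators of myelination had a median of -0.05 over the 15 of 16 genes above the floor. At 1.2-fold or more, 4 were lower in the double knockout and 0 were higher, against 12.9% and 11.2% of all genes. The lower genes were Lama2 (8.39 in the double knockout and 8.92 in the wild type), Dag1 (9.68 in the double knockout and 10.08 in the wild type), Dhh and Yap1. Lama2 encodes a chain of the laminin around Schwann cells and Dag1 its receptor dystroglycan, and muscle fibres make both. Dhh, the hedgehog signal that Schwann cells send to the nerve sheath, read 6.57 in the double knockout and 6.92 in the wild type. Pou3f1, which precedes Egr2 in the promyelinating cell, differed by 0.21, and the Egr2 cofactors Nab1 and Nab2 by -0.11 and 0.00. Adgrg6, the adhesion receptor that starts myelination, read 8.74 on both arrays. Qk, an RNA-binding protein of myelinating glia, differed by -0.18 at its strongest probe set and by 0.26 at a second, with the third below the floor in both genotypes, and Zeb2 differed by 0.16. Pou3f1 and Adgrg6 did not share the lower reading of Egr2, while Dhh and Yap1 of the same list were lower. Any link of these genes to the Egr2 reading was not tested.

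Genes of precursor, immature and non-myelinating Schwann cells did not follow Fabp7 as a group. Of 17 above the floor, 7 were lower and 3 higher by 1.2-fold or more, against 12.9% and 11.2% of all genes. The median was -0.08. Ngfr, the neurotrophin receptor of immature Schwann cells, read 8.75 in the double knockout and 9.27 in the wild type, a difference of -0.53. Nes, which encodes nestin in neural progenitors and also in developing muscle, was the furthest, at 7.37 in the double knockout and 8.68 in the wild type, 2.48-fold lower. The higher genes were Cdh2 (0.47), Tfap2a (0.36) and Id2 (0.32), which encode N-cadherin, a neural crest transcription factor and an inhibitor of differentiation, and other tissues also express them. Gap43, a growth protein of axons and immature Schwann cells, differed by 0.17. Ncam1 and Ednrb, the adhesion molecule and the endothelin receptor, differed by -0.12 and 0.03.

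Neuregulin signalling keeps Schwann cells alive and sets the thickness of myelin. At 1.2-fold or more, 3 of 14 genes were higher in the double knockout and 0 were lower, with a median of -0.06. Of all genes, 11.2% were higher and 12.9% lower at this fold. Among ligands, Nrg1, the axonal signal to Erbb3, read 6.51 in the double knockout and 6.26 in the wild type. Nrg3 read 7.06 in the double knockout and 6.57 in the wild type, and Nrg2 was below the floor in the wild type, at least 1.36-fold higher. Among receptors, Erbb2, the partner without which Erbb3 does not signal, differed by -0.09, and Erbb4 by 0.27. The proteases Bace1 and Adam10, which cut neuregulin, differed by -0.25 and -0.04, and the phosphatase Ptpn11 by -0.26. Under scaling to equal housekeeping medians, the medians of these 4 lists were between 0.05 and 0.08. That scaling moved the median of all genes to 0.12, so the lists stayed below it there too.

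**Figure D3:**
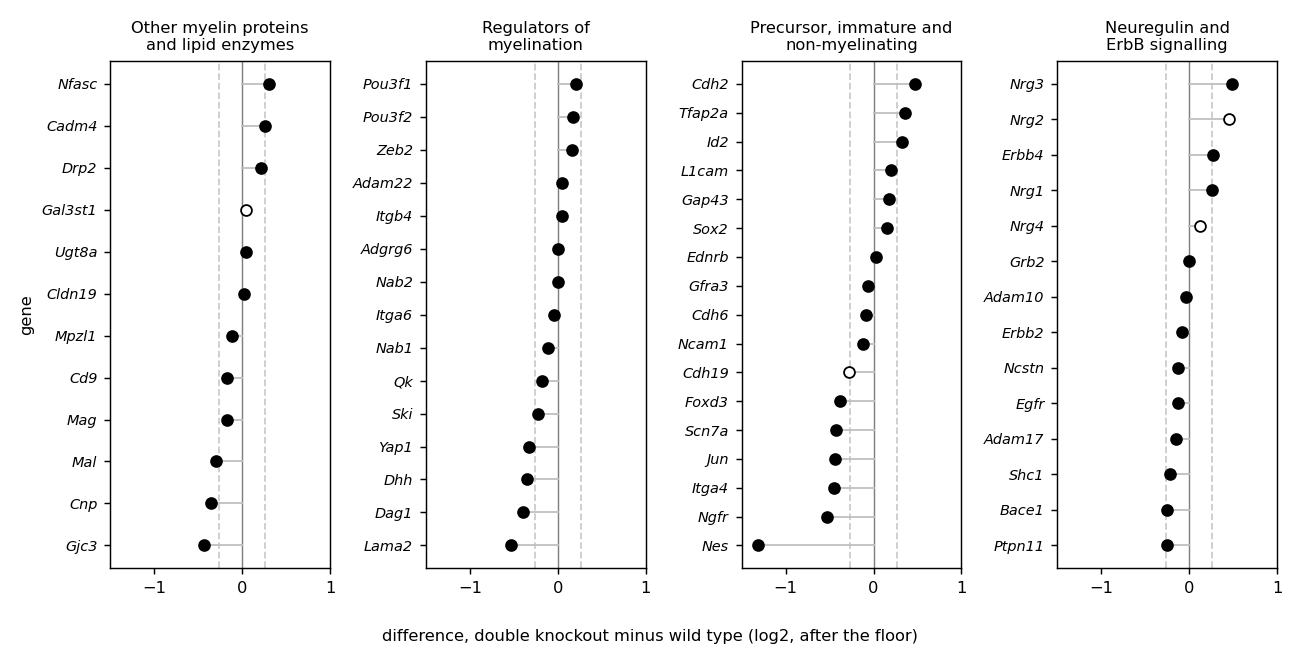
Difference of double knockout minus wild type (x axis, log2 after the floor) for each gene above the floor in 4 lists (y axis), with filled points for genes above the floor on both arrays, open points for bounds and dashed lines at 1.2-fold. Each panel spreads to both sides of 0, and Nes at -1.31 is the furthest point.

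Markers of other cells moved beside the members, and their part in these values was not tested. Radial glia and astrocyte markers, which share Fabp7, were higher by 1.2-fold or more in 6 of 10 genes and lower in 1. Of all genes, 11.2% were higher and 12.9% lower at this fold. The markers had a median of 0.42 and summed linear signals of 1834 in the double knockout and 1408 in the wild type. Bcan, the brain proteoglycan brevican, read 7.22 in the double knockout and 6.28 in the wild type. Ptprz1, Slc1a3 and Ttyh1, a phosphatase, a glutamate transporter and a membrane protein of radial glia, differed by 0.49, 0.40 and 0.18. Cortical neuron markers were higher by 1.5-fold or more in 6 of 6 genes, against 2.25% of all genes. Their sums were 1022 in the double knockout and 415 in the wild type. Only 3 cleared the floor on both arrays, while Tbr1, Neurod6 and Emx1 did so in the double knockout alone. The list was chosen with earlier results of these data known, so the count is only a description. The cortical transcription factors Fezf2, Neurod2 and Bcl11b differed by 1.80, 1.08 and 0.86. Of 12 oligodendrocyte markers, 8 were below the floor on both arrays, including Mog and Mobp of mature oligodendrocyte myelin. Olig2 was at 6.14 in the double knockout and 5.36, below the floor, in the wild type, while Sox8 and Cspg4 differed by -0.07 and -0.40.

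Peripheral neuron markers went the other way from the cortical ones, with 7 of 11 lower and 1 higher by 1.2-fold or more. Of all genes, 12.9% were lower and 11.2% higher at this fold. The peripheral markers had a median of -0.44. Their summed linear signal was 2912 in the double knockout and 3416 in the wild type. Prph, the neurofilament-like protein of peripheral neurons, read 8.23 in the double knockout and 8.75 in the wild type, and Th was 2.39-fold lower. Nefl differed by -0.17 and Tubb3, a tubulin of neurons in general, by 0.47. These cells supply the axons that Schwann cells ensheathe, and whether the lower readings of Egr2, Pmp22 and Ngfr go with them was not tested.

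For S100b, the cartilage list gave 2 lower and 2 higher genes of 9 at 1.2-fold, against 12.9% and 11.2% of all genes. Its median was 0.05, with Col2a1, Acan and Cnmd at 0.05, 0.05 and 0.21. For Sox10, which melanocytes share, 4 of 9 melanocyte markers were above the floor. At 1.2-fold or more, 1 of these 4 was higher (Dct, 0.33) and 0 were lower, against 11.2% and 12.9% of all genes. Mitf and Tyrp1 differed by -0.08 and 0.07. For Egr2, which other cells induce as an immediate early gene, the list of such genes had a median of -0.51. At 1.2-fold or more, 5 of the 6 above the floor were lower, against 12.9% of all genes. Egr1, a relative of Egr2, read 6.64 in the double knockout and 7.14 in the wild type. Egr3 read 7.09 in the double knockout and 7.12 in the wild type. Dusp1 and Nr4a1 differed by -0.44 and -0.52. Atf3 and Fosb cleared the floor in the wild type alone and have only bounds, with Atf3 at least 1.51-fold lower. Macrophage markers, another source of Egr2, were lower by 1.2-fold or more in 5 of 6 genes, against 12.9% of all genes. Csf1r, C1qb and Mrc1 differed by -0.29, -0.32 and -0.28.

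**Figure D4:**
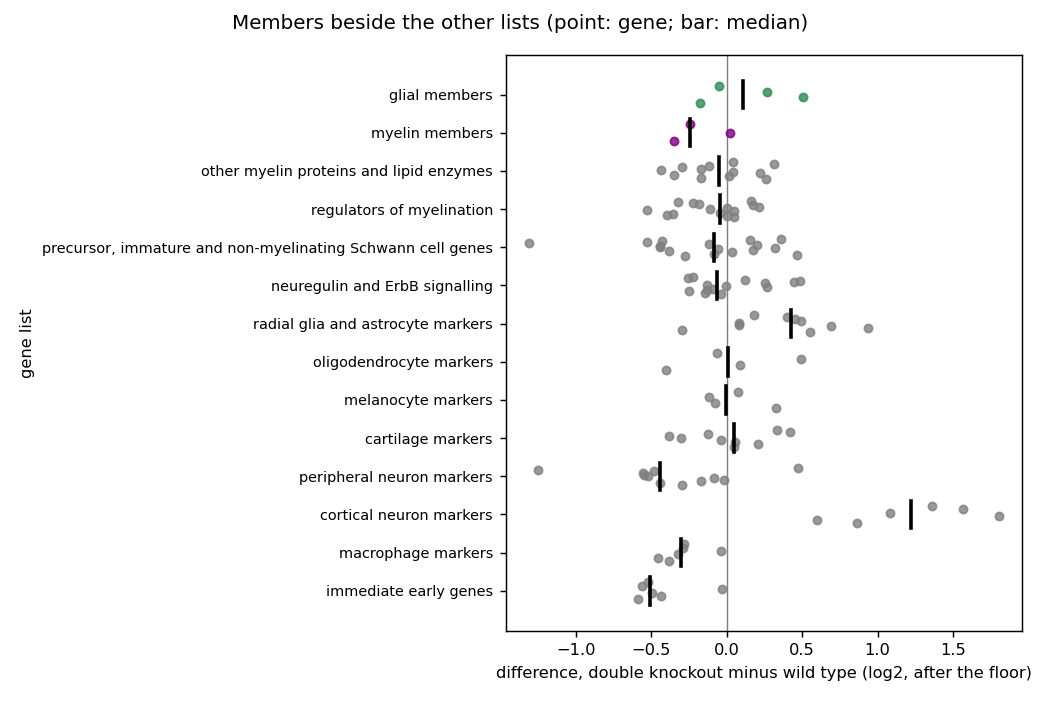
Difference of double knockout minus wild type (x axis, log2 after the floor) for genes of 14 lists (y axis), with 1 point per gene that cleared the floor in either genotype and a black bar at each list's median. The glial members spread to both sides of 0 and the myelin members reach from -0.35 to 0.02, while the radial glia list centres at 0.42 and the immediate early list at -0.51.

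Fatty acid binding proteins of the same family went different ways. Fabp4 of fat cells read 11.17 in the double knockout and 10.71 in the wild type, and Fabp5 of skin and other epithelia read 8.99 in the double knockout and 8.62 in the wild type. Fabp3 of muscle read 7.10 in the double knockout and 8.23 in the wild type, 2.18-fold lower. The other 5 were below the floor on both arrays. Fabp7 at 0.51 lay nearest to Fabp4 at 0.47.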

How the data were processed

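Ear RNA at E18.5 was extracted with Trizol and 6 µg labelled with biotin, per the labels. The deposited table holds 1 value per probe set and array on a log2 scale; its base was inferred from the spread of values, 0.75 to 13.26 in the double knockout and 0.81 to 13.27 in the wild type. MAS5 is the only tool in the submitters' processing notes, without a version number; how background and arrays were adjusted, and on which genome build, was not known, so an uneven scaling could shift every difference.

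Of 35557 probe sets, the platform annotation pairs 21789 with 1 gene, 1621 with several and 12147 with none; 21698 were matched by Entrez identifier to RefSeq genes of GRCm38.p6. Sox21, listed there also as a synonym of Sox10, is a separate gene and was not counted. Per gene the probe set of highest mean linear signal was kept, values were floored at each array's 50th percentile, and the difference was log2 double knockout minus log2 wild type. Genes at the floor on 1 side have bounds. Differences were counted at 1.2-fold, 1.5-fold and 2-fold, with no test. Having 1 array per genotype limits the precision throughout. The members and the 15 other lists were chosen with earlier results of these data known. Besides all members, the text names each list's 3 genes of highest signal, its largest difference of 1.5-fold or more each way, and Mag, Pou3f1, Ngfr and Gap43; all others were chosen after their values were seen. Alternatives were 4 other scalings (equal medians, quantile, loess with a span of 0.3, housekeeping medians), a lower floor (25th percentile) and a higher one (75th), leaving the floor out, adding the median linear signal of the array as a pseudocount instead, and the median over probe sets. The calculation was tested on simulated data, with changes of 2-fold or more placed in genes well above the floor. Smaller differences and signals near the floor were not covered. Promoter windows came from RefSeq, with chromosome 18 left out. Python 3.11.15, numpy 2.4.6, pandas 2.3.3, statsmodels 0.14.6 and matplotlib 3.10.9 were used.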

Additional observations from a re-analysis of the deposited data

How the results depend on the processing

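Under 9 other settings of scaling, floor and probe set choice, the glial minus myelin gap ranged from 0.19 (floor at the 75th percentile, with 4 genes left) to 0.40 (quantile normalization), and the myelin median from -0.28 to -0.11. The glial median was 0.08 to 0.24, except with the floor at the 75th percentile, where it was -0.05 over 3 genes. Fabp7 ranged from 0.50 to 0.64, S100b from 0.18 to 0.40, Pmp22 from -0.28 to -0.11, Egr2 from -0.41 to -0.16, Erbb3 from -0.18 to -0.05 and Mbp from 0.02 to 0.15. Sox10 alone changed sign, from -0.05 to 0.08 under equal housekeeping medians, a scaling that moved the median of all genes to 0.12, against -0.01. Counts at 1.2-fold rest on single genes. The share of all genes past that fold was computed only in the main setting, at 12.9% lower and 11.2% higher. Members lower numbered 1; 2 with quantile normalization; and 0 with housekeeping scaling, the floor at the 75th percentile, a pseudocount, or without Egr2. Members higher numbered 2, and 1 with quantile normalization, loess, the floor at the 75th percentile, a pseudocount, or without Fabp7 or S100b. At 1.5-fold and 2-fold both counts were 0. The causes were not tested. Leaving out a replicate could not be done, and no paired analysis was possible because each genotype has 1 array. Signals near the floor, as for Egr2 and S100b, limit what can be read from them. The medians of the other lists are given as they stand in the text, and 13 of 131 such medians changed sign across these settings, all with main values within 0.1 of 0.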

Other observations

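Of the 7 measured members, 4 (Fabp7, Egr2, S100b and Erbb3) lie on the chromosome that carries Myf5 in GRCm38.p6, and the unmeasured Prx lies on that of Myod1. The 608 genes of the Myf5 chromosome that cleared the floor in either genotype had a median difference of -0.01, and its 4 members went in both directions. In the list of precursor, immature and non-myelinating Schwann cell genes, 10 of 17 genes were below 0 and 7 above it. Of all genes, 50.8% were below 0. Besides Ngfr and Nes, the genes lower by 1.2-fold or more were Jun (-0.44), Itga4 (-0.45), Scn7a (-0.43), Foxd3 (-0.38) and Cdh19, which was below the floor in the double knockout and has a bound of -0.27. Among the genes above 0, L1cam differed by 0.20 and Sox2, which radial glia and the sensory epithelium of the ear share, by 0.16.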
